A study of Mus musculus with 4 samples.

Results

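Cdk1, Aurka, Aurkb and Birc5 encode 4 proteins that drive and order mitosis, and their promoters were followed here through H3K27 acetylation (H3K27ac), which marks promoters and enhancers in use, in regenerating and resting mouse liver. The genes were taken by name from the annotation of the H3K27ac regions, and every region within 100 kb of their transcription start sites (TSSs) was read in each group. All 4 had a TSS in the tables, as did 10925 gene names in all, of which 7090 were protein-coding.

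Livers of 2 groups of C57/BL6J mice were compared, each with 2 CUT&Tag libraries. The PHx 12 h group was taken 12 h after 70% hepatectomy, and the sham group came from sham-operated mice, for which the labels give no time while the design text speaks of 0 h. In CUT&Tag a transposase tethered by an antibody cuts and tags DNA close to the mark. All mice were wild type, nuclei came from frozen pieces of whole liver, and the animals behind each library are not stated.

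CDK1 is the kinase that, bound to cyclins A and B, starts mitosis. Aurora A, from Aurka, acts at centrosomes and spindle poles. Aurora B, from Aurkb, and survivin, from Birc5, sit together with INCENP and borealin in the chromosomal passenger complex, which corrects kinetochore attachments and later acts in cytokinesis. Transcripts of such genes peak in G2 and M phase and are low in quiescent cells. In resting cells the MuvB complex, with E2F4 and p130, keeps the genes off through an element called CHR, and in cycling cells MuvB with B-Myb and FoxM1 switches them on; NF-Y binds nearby CCAAT boxes. After hepatectomy in mice, hepatocytes leave quiescence and replicate their DNA well after 12 h, and mitosis follows later, so the PHx livers were sampled before the usual time of division.

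The proximal promoters of 3 of the genes are shown because these are the sequences that the regions described next lie over. Each also holds letters of the CHR element, of the CCAAT element or of both. Each line gives the 250 bases before the RefSeq start, 5′ to 3′ on the strand of the gene, with CHR letters (TTTGAA or TTTAAA) and CCAAT boxes (CCAAT, or ATTGG where it lies on the other strand) in capitals. The build of these sequences is GRCm38.p6, which differs from that of the regions. Cdk1 is at chr10:69352913-69353162 on the minus strand, Aurka at chr2:172370571-172370820 on the minus strand and Birc5 at chr11:117848987-117849236 on the plus strand.
Cdk1: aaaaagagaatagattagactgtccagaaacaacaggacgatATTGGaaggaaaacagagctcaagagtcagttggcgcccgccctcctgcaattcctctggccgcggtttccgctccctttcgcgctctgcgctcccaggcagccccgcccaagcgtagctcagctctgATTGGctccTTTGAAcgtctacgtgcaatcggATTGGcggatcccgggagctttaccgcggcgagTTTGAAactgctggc
Aurka: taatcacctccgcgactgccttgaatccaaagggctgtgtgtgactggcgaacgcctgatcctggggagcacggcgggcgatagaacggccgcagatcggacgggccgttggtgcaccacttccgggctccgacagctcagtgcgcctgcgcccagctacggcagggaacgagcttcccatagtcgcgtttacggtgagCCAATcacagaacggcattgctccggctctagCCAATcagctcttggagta
Birc5: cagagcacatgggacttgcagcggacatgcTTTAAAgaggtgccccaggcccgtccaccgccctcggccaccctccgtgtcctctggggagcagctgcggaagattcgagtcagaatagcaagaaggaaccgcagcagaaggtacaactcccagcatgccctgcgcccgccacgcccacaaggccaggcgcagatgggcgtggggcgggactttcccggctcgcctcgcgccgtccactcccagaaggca

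The motif search covered 250 bases before to 50 bases after the start, on both strands, and positions count from the start. The Cdk1 window held TTTGAA at -71 to -66 and again at -15 to -10, with CCAAT boxes at -80 to -76, -48 to -44 and -208 to -204. It also held an E2F-like TTGGCGC at -178 to -172, and GGGCGG at -171 to -166 and at -104 to -99. The Aurka window had CCAAT boxes at -51 to -47 and -19 to -15, and its CHR letters lay after the start, TTTAAA at 18 to 23 and TTTGAA at 33 to 38. The Birc5 window had TTTAAA far upstream, at -220 to -215, GGGCGG at -193 to -188 and -48 to -43, and no CCAAT. CHR letters of either kind were in 27.6% of all 32851 RefSeq promoters of the same length, CCAAT in 37.4%, both in 10.7%, GGGCGG in 35.7%, and TTGGCGC or TTCCCGC in 6.81%. TGACG, the core of a CRE, was in 20.8% of all promoters and in none of these 3 windows. These are matches of letters, not measured binding.

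A promoter was called marked in a group when an H3K27ac region of that group came within 1 kb of the TSS. Cdk1, Aurka and Birc5 were marked in both groups, and Aurkb was marked in PHx 12 h only. Of the 7090 protein-coding genes that could be read, 66% had a region in each group, 15.4% in PHx 12 h only, 9.79% in sham only and 8.79% in neither, and counts of 3 and 1 out of 4 are too small to stand apart from these shares. The tables hold 1 merged list of regions per group, without signal, counts or scores per library. The values below therefore have no replicate error, the depth is unknown and no test between the groups could be made.

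**Figure D1:**
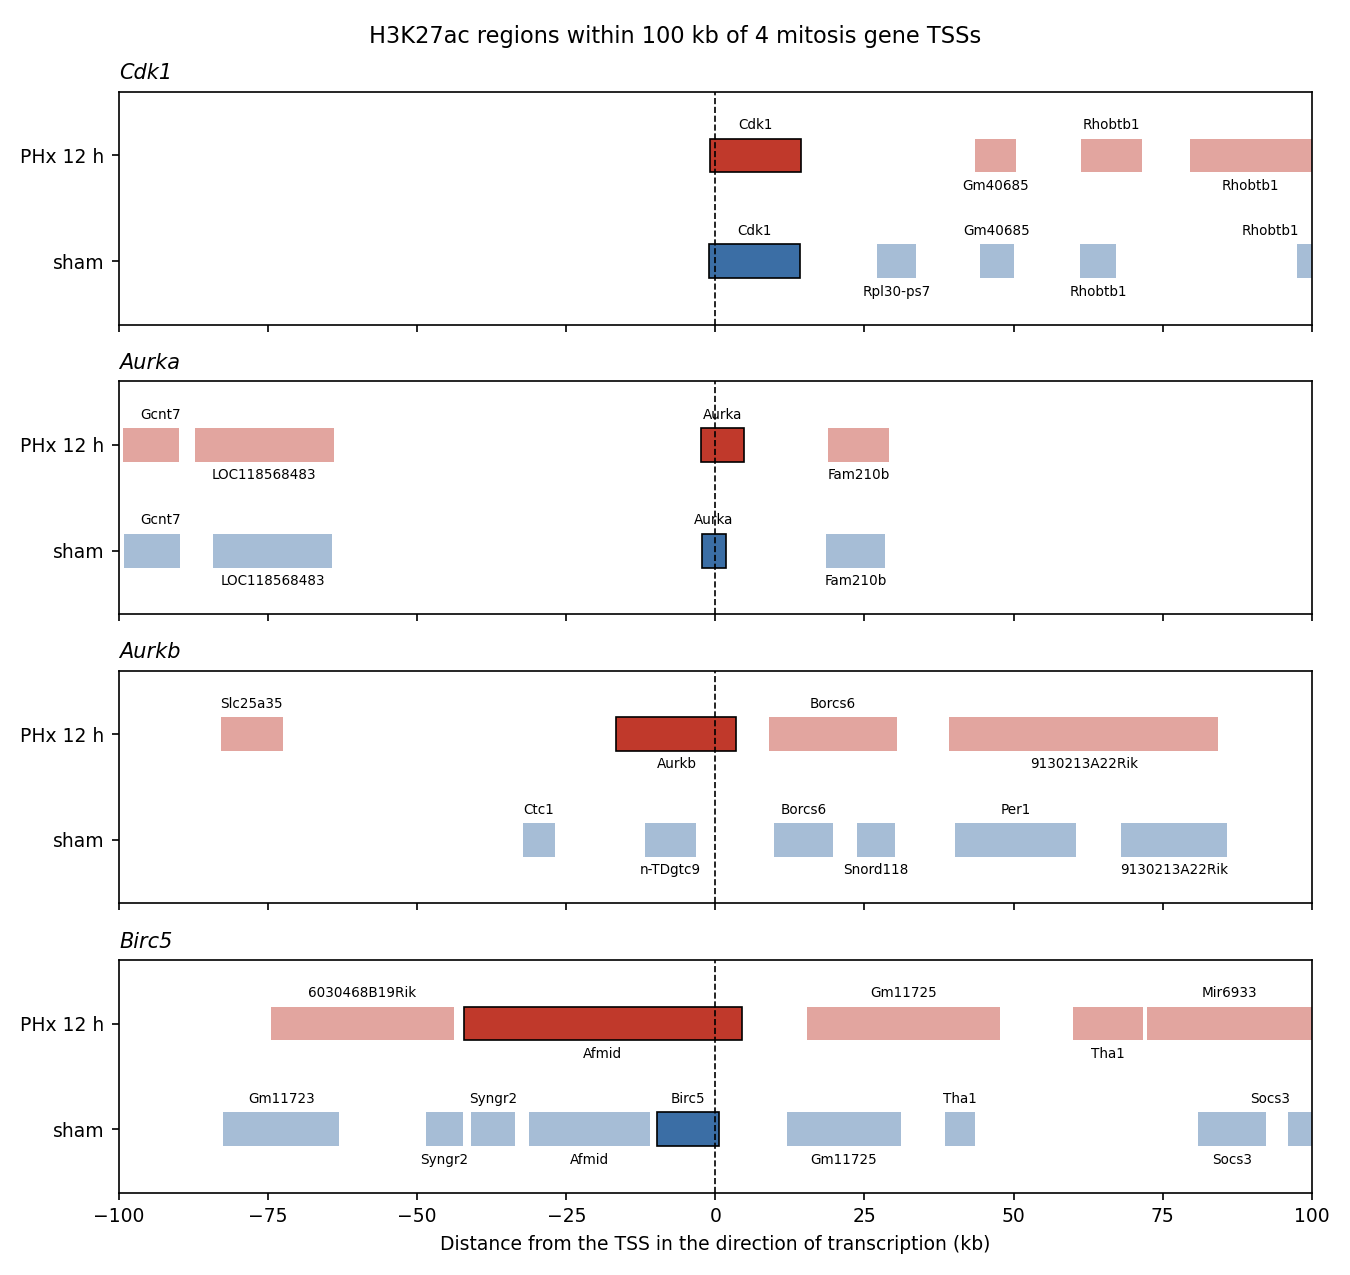
H3K27ac regions of PHx 12 h (red, upper row) and sham (blue, lower row) liver within 100 kb of each TSS; the x axis is the distance in kb in the direction of transcription, the dashed line is the TSS, full colour with an outline marks the region over the TSS and the names are those the authors gave each region. The Cdk1 regions match in extent, the Aurkb TSS lies in a PHx 12 h region but between 2 sham regions, and 1 PHx 12 h region at Birc5 spans 3 sham regions.

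Cdk1 had nearly the same region in both groups, and it lay over the gene rather than before it. On GRCm39 chromosome 10, the gene runs on the minus strand from 69188742, its TSS, to 69170976. The PHx 12 h region reached from 69174303 to 69189580 and was 15278 bp wide, and the sham region reached from 69174623 to 69189838 and was 15216 bp wide. The PHx 12 h region began 838 bp upstream of the TSS and ran 14439 bp into the gene, and the sham region began 1096 bp upstream and ran 14119 bp into it. They covered 81.3% of the gene body in PHx 12 h and 79.5% in sham. Of the PHx 12 h region, 97.9% was also covered in sham, and 320 bp were not.

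The width ratio at Cdk1, PHx 12 h over sham, was 1.004, where the median over the 4682 protein-coding genes marked in both groups was 1.72 (quartiles 1.24 and 2.71). A lower ratio was found at 9.25% of those genes. Within its own list the sham region was wider than 83.8% of sham regions, and the PHx 12 h region was wider than 52.9% of PHx 12 h regions. In the sham list the Cdk1 region joined 2 peaks of library 1 and 1 peak of library 2, and after PHx it joined 1 peak of each library. Cdk1 thus carried a promoter region of about 15 kb in sham liver already, and its edges differed by 320 and 258 bp between the groups.

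Aurka had the narrowest promoter region of the 4 genes in each group in which they were marked. On chromosome 2, with its TSS at 172212490 and the gene on the minus strand, the PHx 12 h region reached from 172207720 to 172214848 (7129 bp) and the sham region from 172210731 to 172214691 (3961 bp). Upstream edges lay 2358 bp from the TSS in PHx 12 h and 2201 bp in sham. The downstream edges, inside the gene, lay 4770 bp from the TSS in PHx 12 h and 1759 bp in sham. The extra length after PHx was thus on the side of the gene body, of which 33.2% was covered in PHx 12 h and 12.2% in sham. The ratio of widths was 1.80, with 53.1% of genes lower, close to the median of all genes. The Aurka regions were among the narrow ones of each list, since 7.64% of PHx 12 h regions and 4.01% of sham regions were narrower.

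The start of Cstf1, which encodes a subunit of the cleavage stimulation factor for mRNA 3′ end formation, lies 433 bp from that of Aurka on the opposite strand in RefSeq GRCm38.p6. A region over the pair cannot be told apart between these 2 genes. Neither table names Cstf1.

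Aurkb lay in a gap of 13191 bp between sham regions, and the PHx 12 h region over its TSS covered the first part of that gap and left 5542 bp before the next PHx 12 h region. On chromosome 11, the gene starts at 68936450 on the plus strand. The PHx 12 h region reached from 68919863 to 68939979, a width of 20117 bp, from 16587 bp before the TSS to 3529 bp after it, and covered 58.4% of the gene body. The nearest sham region, of 8536 bp, reached from 68924622 to 68933157 and ended 3293 bp before the TSS, and the next, at Borcs6, started 9899 bp after it. The sham region on the upstream side was named by the authors for n-TDgtc9, a gene of an aspartate tRNA in a tRNA cluster beside Aurkb. It lay wholly inside the PHx 12 h region and made up 42.4% of it, and 11581 bp were in PHx 12 h only. The gene body of Aurkb had 0% coverage in sham.

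Within each library the peaks are numbered along the genome, so a number missing between neighbouring regions is a peak of that library that entered no merged region. Between the sham regions at n-TDgtc9 and Borcs6 no number was missing in either sham library, so neither library had a separate peak over the Aurkb TSS that merging could have dropped. This was the case for 111 of the 1091 protein-coding genes marked in PHx 12 h only, or 10.2%. The distance of 3293 bp to a sham region is short: the median over those 1091 genes was 23040 bp, and 12.7% had a nearer sham region. A sham region within 5 kb of the TSS was found at 18.5% of them, and at 30.6% the PHx 12 h region shared at least 1 bp with a sham region, as at Aurkb. With a window of 5 kb in place of 1 kb, chosen after this distance was seen, Aurkb was marked in both groups; with 3 kb it was still marked in PHx 12 h only. The region at Aurkb was wider than 72.2% of those at genes marked in PHx 12 h only, whose median was 13403 bp (quartiles 9714 and 21514 bp).

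Birc5 had the widest PHx 12 h region of the 4 genes, and most of that width was already acetylated in sham as separate regions. On chromosome 11, with the TSS at 117740063 on the plus strand, the PHx 12 h region reached from 117697950 to 117744453 (46504 bp) and the sham region from 117730256 to 117740710 (10455 bp). In PHx 12 h it ran from 42113 bp before the TSS to 4390 bp after it. In sham it ran from 9807 bp before the TSS to 647 bp after it. The width ratio was 4.45, and 89.7% of genes had a lower ratio. However, the PHx 12 h region overlapped 3 sham regions, of 7493 bp at Syngr2, 20252 bp at Afmid and 10455 bp at Birc5, which together measured 38200 bp. Against that sum the ratio was 1.22, where the median of the same measure over all genes marked in both groups was 1.40. At 29.6% of those genes the PHx 12 h region overlapped several sham regions.

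The gaps between those sham regions were 2255 and 1204 bp, and no peak number was missing in either. The 8304 bp that were in PHx 12 h only lay in these gaps and at the ends of the region. Inside the gene, coverage was 67.5% of the body in PHx 12 h and 9.96% in sham, since the sham region stopped 647 bp past the TSS. Cut to 10 kb on either side of the TSS, the region measured 14391 bp in PHx 12 h and 10455 bp in sham, a ratio of 1.38, against a median of 1.43 over all genes.

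The same PHx 12 h region also held the TSSs of Syngr2, which encodes a synaptogyrin, and Afmid, the kynurenine formamidase of tryptophan breakdown. Tk1, thymidine kinase 1 of S-phase nucleotide supply, lies between these 2 genes in RefSeq gene order, and its start is 95 bp from that of Afmid on the opposite strand in GRCm38.p6. The authors named the region for Afmid. By their gene names alone Birc5 therefore had a promoter region in sham only, although a PHx 12 h region covers its TSS. Of the protein-coding genes with a promoter region, 15.9% in PHx 12 h and 4.37% in sham had one named for another gene.

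**Figure D2:**
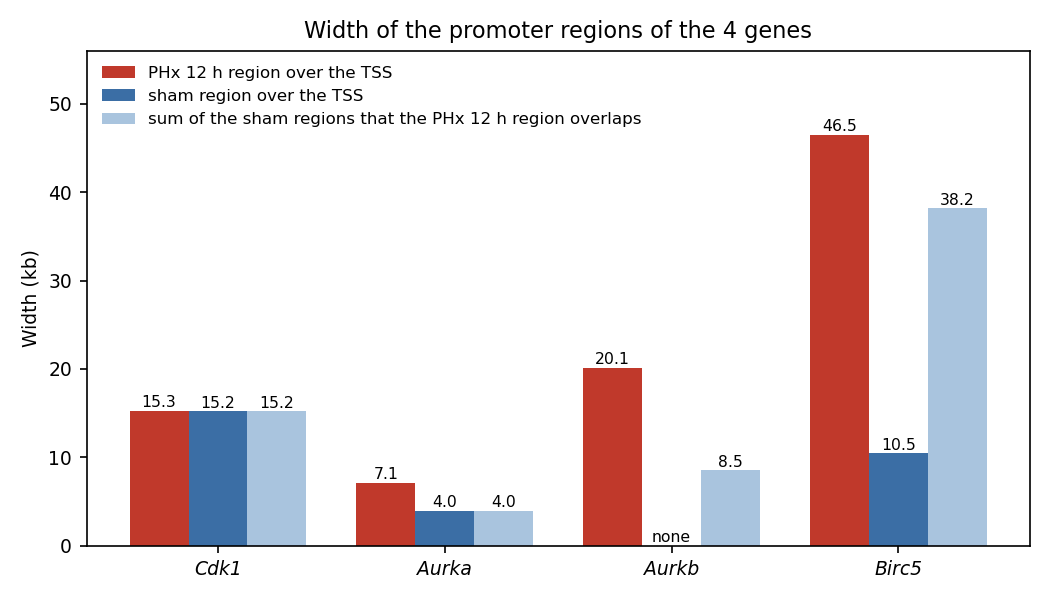
Width in kb of the PHx 12 h region over the TSS (red), the sham region over the TSS (blue) and the summed sham regions that the PHx 12 h region overlaps (light blue) for the 4 genes; Aurkb has no sham region over its TSS. At Birc5 the sham sum of 38200 bp is close to the PHx 12 h width of 46504 bp, and at Cdk1 the bars are level.

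The edges differed in ways of their own at each gene. At Cdk1 both edges nearly coincided. At Aurka the downstream edge differed by 3011 bp and the upstream edge by 157 bp. At Birc5 and Aurkb the PHx 12 h region took in the neighbouring upstream sham regions and reached 3743 bp further into Birc5 and 3529 bp into Aurkb. The 4 PHx 12 h promoter regions each joined 1 peak of library 1 and 1 peak of library 2; the extent of each library's own peak is not in the tables.

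**Figure D3:**
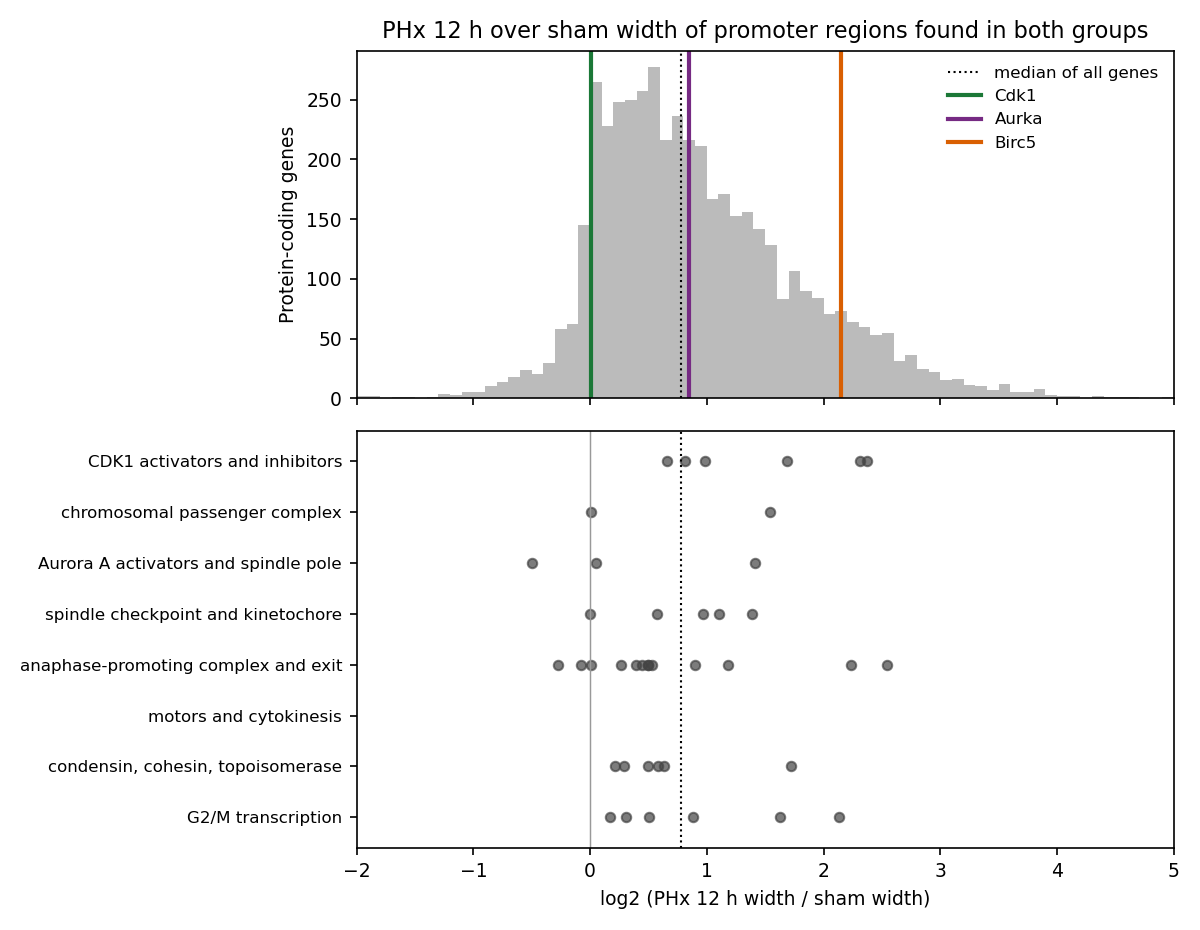
Width ratio of promoter regions marked in both groups, as log2 of PHx 12 h over sham width: above, all 4682 protein-coding genes with the median (dotted) and 3 of the genes as coloured lines; below, each of the 41 other mitosis genes marked in both groups as a point, by role. Cdk1 lies at the left edge of the bulk, Aurka at the median and Birc5 in the right tail.

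Within 100 kb of the 4 TSSs there were 17 PHx 12 h regions, of 6816 to 95855 bp (median 20117 bp), and 24 sham regions, of 3674 to 20303 bp. Of these 2 PHx 12 h and 2 sham regions shared no base with the other group. The share of such regions over each whole list was not taken, so these counts only describe the 4 windows. The sham-only regions were at Rpl30-ps7, a ribosomal protein pseudogene 27709 bp downstream of the Cdk1 TSS (6407 bp wide), and at Ctc1, a subunit of the telomere CST complex upstream of Aurkb (5391 bp). The PHx-only regions were at Slc25a35, of the mitochondrial carrier family, upstream of Aurkb (10391 bp), and in an exon of Gm11725 downstream of Birc5 (11642 bp), which the authors named for the threonine aldolase gene Tha1. At each of these 4 places a single library of the other group had 1 unused peak number in the stretch and its partner library had 0. That number is placed in the stretch between neighbouring regions and not at the region itself.

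The acetylated length within 100 kb of the TSS was greater in PHx 12 h at all 4 genes. At Cdk1 it was 52778 bp in PHx 12 h and 35750 bp in sham, a ratio of 1.48. At Aurka it was 50141 bp in PHx 12 h and 43289 bp in sham, a ratio of 1.16. At Aurkb it was 96956 bp in PHx 12 h and 68115 bp in sham, a ratio of 1.42. At Birc5 it was 148660 bp in PHx 12 h and 103153 bp in sham, a ratio of 1.44. Over 6808 protein-coding genes with sham coverage in this window, the median ratio was 1.48 (quartiles 1.19 and 1.96). Cdk1, Aurkb and Birc5 lay near it, with 49.6%, 45.8% and 47.0% of genes lower, and Aurka lay under the lower quartile, with 22.1% lower.

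The genes sit in different surroundings. The Birc5 window was the most densely acetylated, with 74.3% of it covered in PHx 12 h and 51.6% in sham, and it reached towards Socs3, the feedback inhibitor of cytokine signalling. A PHx 12 h region of 95855 bp, named for Mir6933, began 72424 bp downstream of Birc5 and took in 5 sham regions. The Aurkb window came next, with 48.5% in PHx 12 h and 34.1% in sham. It held the clock gene Per1, whose sham region of 20303 bp was joined with that of 9130213A22Rik (17697 bp) in a PHx 12 h region of 45135 bp, and Snord118, a U8 snoRNA gene, whose sham region of 6408 bp was joined with that of Borcs6 (9780 bp) in a PHx 12 h region of 21313 bp. Cdk1 and Aurka had sparser windows, with 26.4% and 25.1% in PHx 12 h and 17.9% and 21.6% in sham.

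At Cdk1 the greater length came from its downstream neighbour Rhobtb1. The region at the Rhobtb1 promoter measured 37404 bp in PHx 12 h, and a sham region of 3674 bp lay inside it. The region at the 3′ end of Rhobtb1 measured 10237 bp in PHx 12 h and 6005 bp in sham, and that near Gm40685 6816 bp in PHx 12 h and 5731 bp in sham. Within 50 kb of the Cdk1 TSS the ratio turned to 0.796, as the sham-only region at Rpl30-ps7 lies there and the Rhobtb1 regions do not. Around Aurka the neighbours were nearly alike: Fam210b had 10324 bp in PHx 12 h and 9928 bp in sham, Gcnt7 9401 bp in PHx 12 h and 9547 bp in sham, and LOC118568483 23287 bp in PHx 12 h and 19853 bp in sham. Aurka itself, at 1.80, thus had the largest ratio of the 4 regions in its window.

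A list of 144 other genes of mitosis in 8 roles was then read in the same way. Of these, 53 had a listed TSS (36.8%, where 32.4% of all protein-coding genes had). There were 3 in PHx 12 h only, 5 in sham only, 41 in both and 4 in neither. As shares these were 5.66% in PHx 12 h only, against 15.4% of all genes, and 9.43% in sham only, against 9.79% of all genes. In both groups there were 77.4%, against 66% of all genes. The median width ratio of the 41 genes was 1.495 against 1.72 over all genes, and a ratio above 1.5 was found at 20 of the 41 (48.8%), where 59.6% of all genes had it. A ratio below 1 was found at 3 of the 41, where 91.4% of all genes had a ratio above 1. A ratio below 1/1.5 was found at 0 of the 41 and at 1.41% of all genes. These counts are a description of the list. By the authors' gene names, Cdc25b, Spc24, Pmf1, Fzr1, E2f4 and Nfya had a promoter region in sham only. Tacc3, Tubg1 and Wapl had one in neither group by those names. In the groups so left out, the regions given below for these genes carried the names of other genes.

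The other 91 genes had no row in either table. They include the cyclins Ccna2, Ccnb1 and Ccnb2, Plk1, Cdc20, Top2a, Mki67, Foxm1, Mybl2 and, of the passenger complex, Incenp and Cdca8. A region names a single gene, so a gene without a row may still lie under a region named for a neighbour, and the state of these genes is unknown. Of 20 genes for mitotic motors and cytokinesis 1 had a listed TSS, the citron kinase gene Cit, which was marked in neither group.

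**Figure D4:**
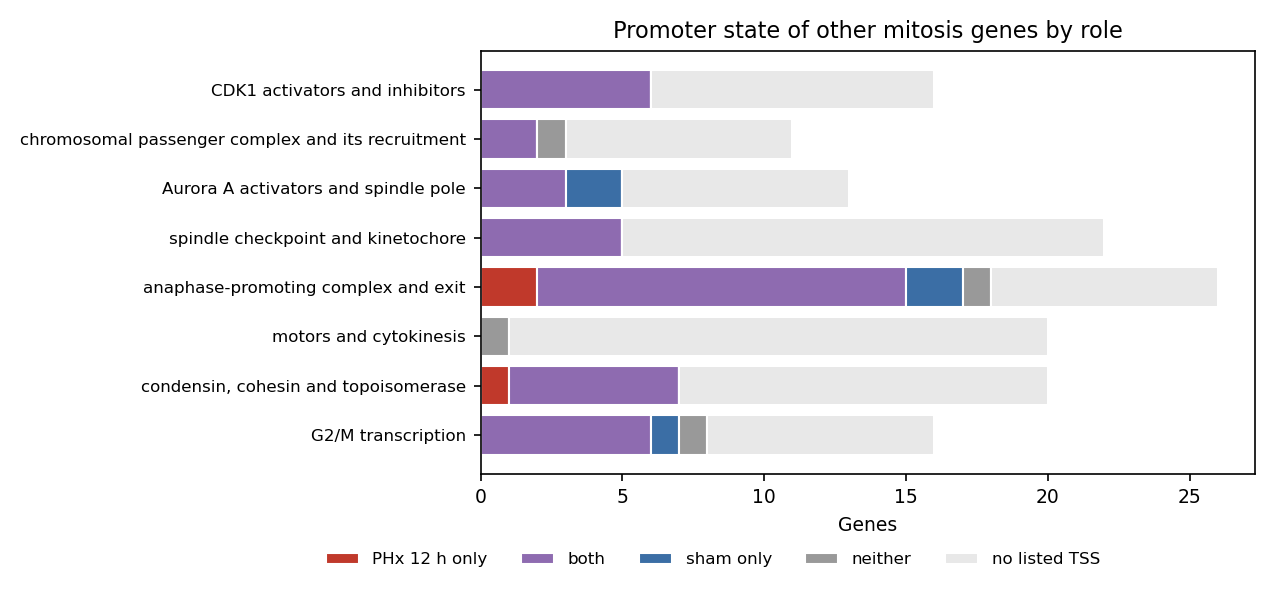
Number of other mitosis genes in each role by promoter state: PHx 12 h only (red), both (purple), sham only (blue), neither (dark grey) and no listed TSS (light grey). The motors and cytokinesis role has 1 of 20 genes with a listed TSS, and the anaphase-promoting complex role has 18 of 26.

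In the role that the list calls CDK1 activators and inhibitors, 6 genes had a TSS: Cdc25b, Wee1, Cks1b, Cks2, Cdkn1a and Ccnf. They were all marked in both groups, as were 66% of all genes. The grouping is that of the list, and regulation of CDK1 by each was not tested. All 6 had a ratio above 1.5, which 59.6% of all genes had, with a median of 2.60 against 1.72. Cdc25b, a phosphatase that removes inhibitory phosphates from CDK1, had a region of 39305 bp in PHx 12 h and 7578 bp in sham, a ratio of 5.19. Cks1b, a small subunit of CDK complexes, had 45675 bp in PHx 12 h and 9209 bp in sham, a ratio of 4.96. Over all acetylated length within 100 kb of the TSS, the ratio was 1.43 at Cdc25b and 0.933 at Cks1b (54659 bp in PHx 12 h and 58615 bp in sham). Cks2, of the same family, had the lowest ratio, with 17235 bp in PHx 12 h and 10894 bp in sham. Cdk1 itself, at 1.004, lay below all 6 of them in region width. Over acetylated length within 100 kb Cdk1, at 1.48, lay above Cdc25b, Cks1b and Ccnf (1.41) and below Cks2 (2.44) and Cdkn1a (1.84).

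Of the genes tied to the passenger complex and to Aurora A, few had a TSS. Cbx5, which encodes the heterochromatin protein HP1 alpha, had 9786 bp in PHx 12 h and 3365 bp in sham, a ratio of 2.91. Over acetylated length within 100 kb of the Cbx5 TSS the ratio was 1.47, where the median of all genes was 1.48. Cbx3, HP1 gamma, had 7941 bp in PHx 12 h and 7907 bp in sham. Sgo1, shugoshin, was in neither. Bora, the activator of Aurora A towards PLK1, and Nek2, a centrosomal kinase, were in sham only, with regions of 6988 and 7507 bp. In the stretch of each, 1 PHx 12 h library had 1 unused peak number. Tubg1, gamma-tubulin, had 16263 bp in PHx 12 h and 6101 bp in sham, Ajuba, a LIM protein that binds Aurora A, 19893 bp in PHx 12 h and 19184 bp in sham, and Tacc3, a spindle protein phosphorylated by Aurora A, 9763 bp in PHx 12 h and 13814 bp in sham, a ratio of 0.707.

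Checkpoint and kinetochore genes with a TSS were all in both groups, 5 of 5, where 66% of all genes were. Mad1l1, the checkpoint protein MAD1, had 22299 bp in PHx 12 h and 8513 bp in sham, and Spc24 of the NDC80 complex 57648 bp in PHx 12 h and 26863 bp in sham. Pmf1, of the MIS12 complex, had 23747 bp in PHx 12 h and 23740 bp in sham.

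Of the genes of the anaphase-promoting complex and of mitotic exit 18 had a TSS, and 13 of them were in both groups (72.2%, where 66% of all genes were). In PHx 12 h only there were 2 (11.1%, where 15.4% of all genes were), and in sham only 2, where 9.79% of all genes were. Cdc27 (11131 bp) and Anapc4 (6122 bp), subunits of the complex, were in PHx 12 h only. The subunit gene Anapc1 (6121 bp) and Ensa (4893 bp), an inhibitor of the mitotic phosphatase PP2A-B55, were in sham only. Fzr1, the activator CDH1, had 37588 bp in PHx 12 h and 6440 bp in sham, a ratio of 5.84 that was the highest of the list, while the ratio of acetylated length within 100 kb of its TSS was 1.02. Cdc26 had 13437 bp in PHx 12 h and 2853 bp in sham, a ratio of 4.71. Within 100 kb of its TSS the acetylated length was 64693 bp in PHx 12 h and 47215 bp in sham, a ratio of 1.37. Arpp19, a relative of Ensa, had 11528 bp in PHx 12 h and 13921 bp in sham, a ratio of 0.828.

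Among condensin and cohesin genes, Stag2, a cohesin subunit, was in PHx 12 h only (8491 bp). Pds5a, a cohesin regulator, had 15545 bp in PHx 12 h and 4704 bp in sham. Ncapd3 of condensin II had 8786 bp in PHx 12 h and 5665 bp in sham, and Wapl, which releases cohesin, 10694 bp in PHx 12 h and 9209 bp in sham. Of the factors that act on G2/M promoters, Tfdp2, an E2F partner, was in sham only (4847 bp), and Tfdp1 was in neither. Nfya, a subunit of the CCAAT-binding factor NF-Y, had 19582 bp in PHx 12 h and 4455 bp in sham, which was all the acetylated length within 100 kb of its TSS. E2f4 had 46833 bp in PHx 12 h and 15187 bp in sham, and Nfyb 16565 bp in PHx 12 h and 14754 bp in sham. Of the 8 genes of the list in a single group, Anapc1 alone had no unused number in either library of the other group, and a PHx 12 h region lay 4293 bp from its TSS; no such number was found at 14.4% of all genes marked in sham only.

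The libraries were whole liver, so a region can come from any of its cells, and more cells of a type cannot be told apart from more acetylation per cell. Of 6 hepatocyte markers, Alb, Apoa1, Ttr and Hnf4a were marked in both groups and Cps1 in PHx 12 h only. Of 5 endothelial markers, Pecam1, Cdh5 and Lyve1 were in PHx 12 h only, 0 were in both and 1 in neither, where 15.4% of all protein-coding genes were in PHx 12 h only. Of 5 Kupffer cell and macrophage markers, Csf1r was in PHx 12 h only and Cd68 in both, and of 4 cholangiocyte markers Sox9 was in both. No listed TSS was found for the 5 stellate cell and fibroblast markers or the 4 lymphocyte markers. The part of these cells in the Aurkb and Birc5 regions was not tested. Regions were wider in the whole PHx 12 h list, with a median of 14551 bp against 8153 bp in sham, and the part of that general difference in each width ratio was not tested.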

How the data were processed

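H3K27ac CUT&Tag was done on liver with 2 libraries per group. The authors deposited 1 table of annotated regions per group, with positions, widths and distances in bp, the gene assigned to each region and the names of the peaks of library 1 and library 2 that it joins, per the file headers. Each region holds peaks of both libraries. Bowtie2, SEACR, ChIPseeker, DiffBind and the builds GRCm39 and mm39 (the same assembly) are named, without versions or roles, per the submitters' processing notes; no threshold is stated there. Replicate numbers are in the labels, but the tables hold no values per library beyond peak names.

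As TSS, the most upstream of a gene's listed starts was taken. A region marked a promoter when it came within 1 kb, and the widest such region was used. Regions overlapped when they shared 1 bp. Biotypes, gene order and promoter sequences came from RefSeq tables of GRCm38.p6, where 10660 of the 10925 gene names matched; no coordinate was converted. Code was Python 3.11.15 with pandas 2.3.3 and was tested on simulated regions. Members, gene lists and motifs were chosen with earlier results of these data known. In the list of 144 genes the text names those marked in a single group and, per role, up to 2 genes with the highest ratio and the lowest. Others named were chosen to show what has no row or no region, or to give all genes of the CDK1 role that had a TSS.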

Additional observations from a re-analysis of the deposited data

How the results depend on the processing

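Counts and ratios were recomputed under planned settings and under 2 settings added after seeing the data; of 67 alternative values, 50 stayed within 1.5 times the main value. No setting turned a ratio above 1.5 to below 1. With the TSS base itself, 3 kb or every listed TSS the 4 genes kept their states; the last setting was run for these 4 genes and not for the list. By the authors' gene names 1 of the 4 was in sham only (Birc5), and in the list of 144 genes 11 were in sham only and 7 in neither. Among regions of at least 5 kb, 2 of the 4 were in PHx 12 h only (Aurka was added), and in the list 14 were in PHx 12 h only, 3 in sham only and 7 in neither. Shares over all genes were not taken for the authors' names or for this width limit. Without those shares these counts only describe the genes read and are no result about mitosis genes. The median region width was 8153 bp in sham and 14551 bp in PHx 12 h, and the part of that difference in the counts was not tested. With 5 kb, chosen after seeing the data, 0 of the 4 were in PHx 12 h only. The width ratio of Birc5 was 4.45 and became 1.38 within 10 kb, 1.22 against summed sham regions and 1.44 over all length within 100 kb; that of Aurka became 1.16 over the latter length. The covered length at Cdk1 had a ratio of 0.796 within 50 kb. With a reciprocal overlap of 50%, 10 PHx 12 h and 17 sham regions near the 4 TSSs had no partner. Where unused peak numbers were not allowed, a setting added after seeing the data, 0 and 0 stayed without one. The shares of such regions over the whole lists were not taken. Leaving out a replicate was not run. No paired analysis was possible because the tables merge the libraries of a group. Depth is unknown, so an absent region may be one not detected.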
